A study of Mus musculus with 4 samples.

Results

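Of the 1940 genes listed with Nrf2 ChIP-seq signal in mouse esophagus, 259 (13.4%) carried 2 or more active regions, and these genes are described here. An active region is a stretch in which an interval was called in at least 1 library, with intervals of different libraries joined. Members were chosen by the region count stated for each gene in the deposited table. Chromatin immunoprecipitation followed by sequencing (ChIP-seq) was done with an antibody against Nrf2 (Santa Cruz, sc-13032) on frozen whole esophagus. The 3 ChIP libraries came from wild-type mice, mice with a knockout of Nrf2 (Nrf2KO) and mice with a knockout of Keap1 (Keap1KO), all of strain C57BL/6, with 1 library per genotype. The remaining sample, pooled input DNA, was not analysed here. The sources used here do not give any treatment, the age, the number of animals per library or the way each gene was deleted.

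Nrf2, encoded by Nfe2l2, is a basic leucine zipper factor that pairs with a small Maf protein and binds antioxidant response elements, short DNA sites near genes of glutathione synthesis, detoxification and redox balance. Keap1 is the adaptor through which a ubiquitin ligase marks Nrf2 for degradation in unstressed cells, and oxidants or electrophiles release Nrf2 from it. In esophageal epithelium, loss of Keap1 is known for thickening and heavy keratinisation of the squamous lining. A gene can carry several such sites, in its promoter, in introns or in flanking DNA.

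Each library gave 1 peak height per gene, a mean over the active regions of that gene in a unit that the sources used here do not state. The depth of the libraries is unknown, and without replicates no difference between genotypes could be tested. All comparisons of heights are therefore of single libraries, and fewer cells with Nrf2 on a site cannot be told apart from less Nrf2 per cell. Marker genes do not check the tissue here, since the values are antibody signal and not expression. A second column gives the height of the tallest region, and the deposited table names Keap1KO as its library for all 259 genes. The Nrf2KO library shows the signal of the antibody in mice labelled as lacking its target, and no member was called in it. The number called in it among all 1940 genes is not given here, so the lack of calls does not set members apart. Its height exceeded that of the wild-type library for 81 members, matched it for 16 and fell short of it for 162.

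The sequences upstream of 5 members are shown. A region of each lay in the promoter window of RefSeq (GRCm38.p6, 250 bases before to 50 after a start). Each of the 5 also holds a motif named below, so they do not stand for all windows with a region. Of the 259 genes, 205 had such a window, and in 29 of them a region fell inside it. The core of the antioxidant response element was searched as TGACNNNGC on both strands. It was found in 11 of the 29 windows (37.9%), in 45 of 118 windows that held the region of a gene with 1 region (38.1%), and in 12.4% of all 32851 windows. The letters TGACTCA, a site shared with AP-1 factors that overlaps some forms of the core, were in 8 of the 29 (27.6%), in 13.6% of the 118 and in 5.2% of all windows. Windows with a region were not matched to the others on base composition, and the shares were not tested against each other. In the first 4 sequences below, 250 bases before the start, capitals mark the core, and in that of Gstp1 they mark TGACTCA, both as read on the strand of the gene and in either orientation.
Txnrd1 (chr10:82858956-82859205, plus strand): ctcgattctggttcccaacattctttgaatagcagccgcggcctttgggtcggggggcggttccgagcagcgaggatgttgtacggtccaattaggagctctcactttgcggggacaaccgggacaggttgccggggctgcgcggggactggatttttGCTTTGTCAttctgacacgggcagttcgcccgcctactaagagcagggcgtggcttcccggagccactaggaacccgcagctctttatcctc
Gadd45g (chr13:51846425-51846674, plus strand): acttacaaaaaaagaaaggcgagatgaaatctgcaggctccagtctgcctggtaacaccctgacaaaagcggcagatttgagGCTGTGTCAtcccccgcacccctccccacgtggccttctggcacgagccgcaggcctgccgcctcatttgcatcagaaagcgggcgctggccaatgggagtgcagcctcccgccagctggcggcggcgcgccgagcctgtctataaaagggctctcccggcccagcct
Sod1 (chr16:90220512-90220761, plus strand): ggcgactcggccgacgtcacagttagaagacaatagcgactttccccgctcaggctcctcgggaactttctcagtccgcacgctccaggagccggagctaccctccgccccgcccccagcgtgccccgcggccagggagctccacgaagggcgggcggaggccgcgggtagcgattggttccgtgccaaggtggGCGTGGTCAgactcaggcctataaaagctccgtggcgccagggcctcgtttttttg
Vmp1 (chr11:86683837-86684086, minus strand): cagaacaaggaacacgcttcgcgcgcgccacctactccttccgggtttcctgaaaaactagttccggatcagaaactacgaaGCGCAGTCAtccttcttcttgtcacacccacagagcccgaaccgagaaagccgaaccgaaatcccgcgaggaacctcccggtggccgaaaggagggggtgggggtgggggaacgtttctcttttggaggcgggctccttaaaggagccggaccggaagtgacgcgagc
Gstp1 (chr19:4037913-4038162, minus strand): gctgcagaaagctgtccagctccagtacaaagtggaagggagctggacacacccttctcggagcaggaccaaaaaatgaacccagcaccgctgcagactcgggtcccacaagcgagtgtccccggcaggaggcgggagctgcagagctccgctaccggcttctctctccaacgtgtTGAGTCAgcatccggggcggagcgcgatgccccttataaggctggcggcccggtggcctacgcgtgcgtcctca

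The windows of Gstp1 and Txnrd1 belonged to the members with the tallest regions, and that of Gadd45g to a gene with 4 regions. Which region of Gstp1 or of Txnrd1 was the tallest could not be told, so it may lie outside the window. At Gstp1 the region called in wild-type was the other one, 8200 bp upstream. The Txnrd1 window is that of a start inside the gene as the deposited table draws it, and the region in it lay 25153 bp from the table's own start. No core was found in the windows of Slc7a11, Keap1, Bag3 and Pgd, which says only that these letters are not in those bases. The window of Bag3 held TGACTCA without a core, as did that of Gstp1. Of the 4 microRNA genes among the members, Mir22 is described here. It shared its 3 regions with its host gene Mir22hg and with Wdr81 and Tlcd2. Its mature sequences are shown with the seed (bases 2 to 8) in capitals, since the gene is one of those called in wild-type.
mmu-miR-22-5p: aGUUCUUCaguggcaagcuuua
mmu-miR-22-3p: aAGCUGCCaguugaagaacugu

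Most members had the smallest number of regions that the rule allows. There were 198 genes with 2 regions, 55 with 3, 5 with 4 and 1 with 5, beside 1681 genes with 1. Neighbouring genes share regions, so the 259 genes stood for 228 distinct sets of regions and 503 distinct regions, which were 29.9% of the 1684 regions of the table. Of the genes, 54 had exactly the same set as at least 1 other gene, and 23 sets were listed under 2 to 4 genes. Such genes have identical heights and are not separate measurements. At the limit of the rule, genes with 1 region had median heights of 5 in wild-type, 5 in the Nrf2KO and 17 in the Keap1KO library, and genes with 2 regions had 6, 5 and 20.

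The genes with the most regions included a pair of partners in protein quality control. Hspb8, a small heat shock protein (chromosome 5, GeneID 80888), had 5 regions, all within its 14369 bp, at 1072, 1808, 2544, 3344 and 5152 bp from the start. Its mean heights were 4.4 in wild-type, 5.4 in the Nrf2KO and 16.4 in the Keap1KO library, and its tallest region reached 23. Bag3, the co-chaperone that binds Hspb8 (chromosome 7, GeneID 29810), had 4 regions, 1 of them 33 bp into the gene, 2 at 7617 and 8497 bp and 1 at 2235 bp beyond the end. Its heights were 6.75, 7.5 and 18.25. In both genes Keap1KO was the highest library, as at all 259 members. Wild-type lay below Nrf2KO in both, as at 81 of the 259 members.

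Gadd45g, a growth arrest and DNA damage response gene (chromosome 13, GeneID 23882), was the shortest of the genes with 4 regions. Its 1800 bp were covered from 163 bp upstream, through 973 and 1501 bp inside, to 581 bp beyond the end. Heights were 8.75 in wild-type, 7.5 in the Nrf2KO and 20.5 in the Keap1KO library, with a tallest region of 33. Gss, glutathione synthetase (chromosome 2, GeneID 14854), had regions at 130, 1698, 7170 and 24642 bp into its 29523 bp. Its heights were 4.5, 5.5 and 16.5, low beside those of many glutathione genes with fewer regions.

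S1pr5, a receptor for sphingosine-1-phosphate (chromosome 9, GeneID 94226), had no region inside its 5526 bp. One of its regions lay 9317 bp upstream, and 3 lay between 3621 and 4453 bp beyond its end. Those 3 are also the regions listed under Keap1, so for them S1pr5 is not a separate measurement. The heights of S1pr5 were 5.5 in wild-type, 6.75 in the Nrf2KO and 19.5 in the Keap1KO library. Over the 6 genes with 4 or more regions the median Keap1KO height was 18.4, against 20 for genes with 2 regions and 23 for those with 3. Only Gadd45g among the 6 was higher in wild-type than in Nrf2KO, against 162 of the 259 members and 52.2% of all 1940 genes.

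**Figure D1:**
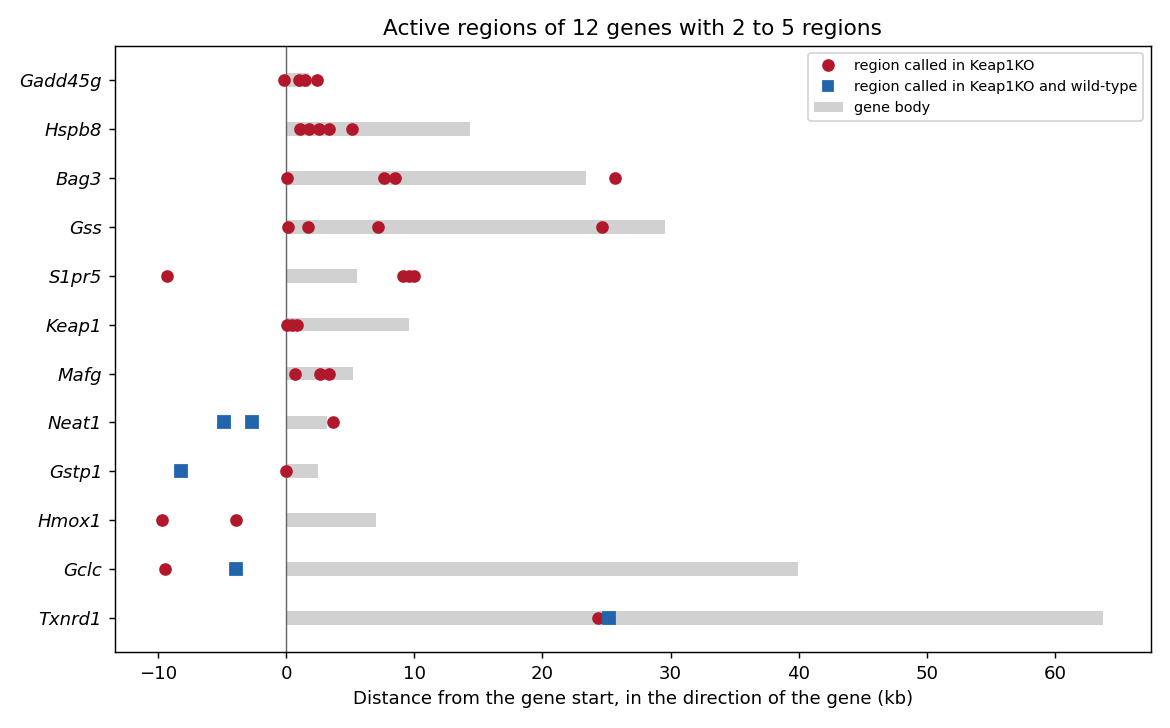
Positions of active regions along 12 genes, in kb from the gene start in the direction of the gene. Grey bars are gene bodies, circles are regions called in Keap1KO and squares are regions called in Keap1KO and wild-type. The regions of Hspb8, Keap1, Mafg and Gadd45g lie close together, those of Gclc and Hmox1 lie upstream, and those of Gss and Bag3 are spread over the gene.

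Neighbouring regions of a gene lay from 160 to 845056 bp apart. The median distance over 327 neighbouring pairs was 7648 bp, with quartiles of 1120 and 33312 bp. Of these pairs, 76 (23.2%) were less than 1 kb apart, 62 lay from 1 kb to under 5 kb, 79 from 5 to under 20 kb, 86 from 20 to under 100 kb and 24 (7.34%) at 100 kb or more. With pairs shared by several genes counted once, the median over 281 was 12928 bp. Positions were coarse, since 95.5% of interval positions were multiples of 16 bp.

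The closest regions, 160 bp apart, were those listed under Tmem63b, Mrpl14 and E030047D23Rik, with heights of 6 in wild-type, 4 in the Nrf2KO and 13 in the Keap1KO library. Epdr1 and Sfrp4, an antagonist of Wnt signalling, shared a pair 304 bp apart, with 6.5, 6.5 and 18. The widest sets were in very long genes. The regions of 1700112E06Rik lay 845056 bp apart (7 in wild-type, 4 in Nrf2KO, 17 in Keap1KO), and those of Rbms3, an RNA-binding protein gene, 698320 bp apart (5.5, 3 and 17). Cdh13, a cadherin without a cytoplasmic tail, had 3 regions over 731568 bp (4.33, 3.33 and 25.33 in wild-type, Nrf2KO and Keap1KO). Erc2, a scaffold of the presynaptic active zone, had 3 over 645600 bp (3, 3.33 and 24.33), and Camk1d, a calcium-dependent kinase, 2 over 328448 bp (6.5, 6 and 25.5). In all 5 of these the Keap1KO height stood above both other libraries, as it did at all 259 members. Over all 1940 genes it was above wild-type at 98.7% and above Nrf2KO at 98.9%.

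The Keap1KO height differed little with the distance between the outermost regions. In the 47 genes with all regions within less than 1 kb the median was 19.3, and in the 26 genes that spanned 100 kb or more it was 21.2. The medians in wild-type were 6 and 4.5, and in Nrf2KO 5 and 4.42. A wild-type interval was called at 0 of the 26 widest genes and at 5 of the 47 closest, which stood for 3 distinct sets, against 4.18% of all 1940 genes. These classes also differed in gene length, with medians of 20543 and 353946 bp, and in the distance of the regions from a start, and the part of either was not tested.

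**Figure D2:**
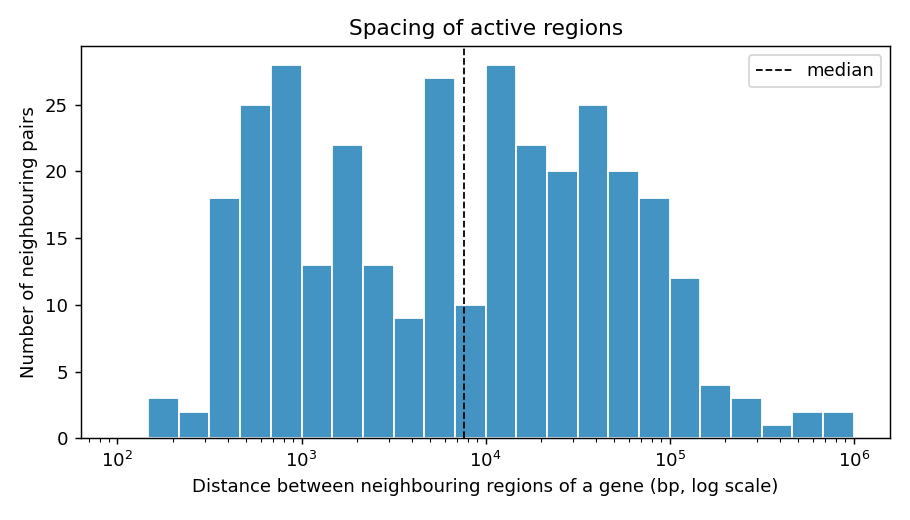
Distances between neighbouring active regions of the same gene, on a log scale in bp, over 327 pairs. Bars count pairs and the dashed line is the median of 7648 bp. Of the pairs 76 lie below 1 kb and 24 at 100 kb or more.

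Regions of these genes lay mostly inside the gene. Of 586 listings of a region under a member, 362 (61.8%) were in the gene, 142 (24.2%) upstream and 82 (14%) downstream. In genes with 1 region these shares were 47.9%, 30.3% and 21.8%. All regions were intragenic in 122 members, none was in 66, and 71 had regions both inside and outside. Regions inside a gene lay at a median of 31378 bp from its start, upstream ones at a median of 2325 bp (at most 10030 bp) and downstream ones at 4966 bp past the end (at most 10159 bp). Whether a region inside a gene was exonic or intronic is not given in the table.

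A region within 1 kb of the start was present in 81 members (31.3%), and in 440 genes with 1 region (26.2%). Counted per region the order was the other way, with 96 of the 586 member listings (16.4%) that close to the start against 26.2% of single regions. In 14 members 2 or more regions lay that close to the start, and in 11 all of them did. Keap1 itself (chromosome 9, GeneID 50868) was one of these, with regions at 36, 484 and 868 bp and heights of 6.33 in wild-type, 7.67 in the Nrf2KO and 19.33 in the Keap1KO library. Gsr, glutathione reductase, had its pair at 122 and 714 bp, and Vcp, an ATPase that unfolds ubiquitinated proteins, at 59 and 683 bp. Sod1, the cytosolic superoxide dismutase, had regions 38 bp upstream and 634 bp inside, with heights of 8, 7 and 16.

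Members with a region near the start had more signal in Nrf2KO. Their median heights were 6.67 in wild-type, 6.5 in the Nrf2KO and 19 in the Keap1KO library, against 5.5, 4.5 and 21 in the 178 other members. Genes with 1 region showed the same order, with 7, 7 and 17 near the start and 5, 4 and 18 elsewhere. The median span was 6720 bp in the first class of members and 16552 bp in the other.

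Members were longer than genes with 1 region, with a median length of 43329 bp (quartiles 14395 and 120416) against 24053 bp (8276 and 68654). The share of listed genes with 2 or more regions was 10% below 10 kb (55 of 548), 11.4% from 10 to 30 kb (58 of 510), 11.7% from 30 to 100 kb (60 of 512) and 23.2% at 100 kb or more (86 of 370). Gene length and the number of bases over which regions are listed under a gene cannot be told apart. Of the regions of members under 10 kb, 23.3% lay inside the gene, against 86.7% in members of 100 kb or more.

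**Figure D3:**
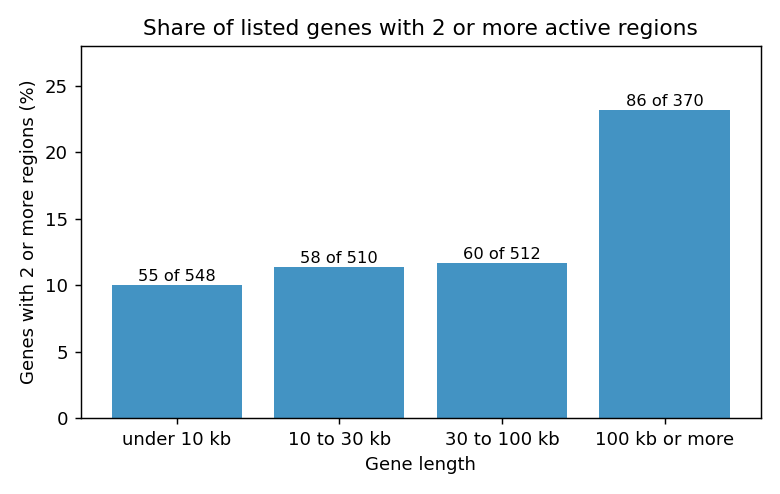
Percent of listed genes that had 2 or more active regions, in 4 classes of gene length, with the number of such genes over all listed genes of the class above each bar. The share is 23.2% in genes of 100 kb or more and between 10% and 11.7% in the shorter classes.

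Keap1KO was the highest of the 3 libraries at every one of the 259 members. The median was 6 in wild-type (quartiles 4.5 and 7.84, range 2 to 21.67), 5 in Nrf2KO (quartiles 3.84 and 7, 1 to 13) and 20 in Keap1KO (16.67 and 26, 10.5 to 89). Over all 1940 genes, Keap1KO was above wild-type at 98.7% and above Nrf2KO at 98.9%. The Keap1KO heights are not independent of the rule, since all 259 were called in Keap1KO and a second call was needed. A mean over several regions also varies less than the height of 1 region.

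Gstp1 and Gstp2, near-identical glutathione transferases of the pi class on chromosome 19 (GeneID 14870 and 14869), led the members. They shared 2 regions, 8 bp and 8200 bp upstream of the start of Gstp1, with mean heights of 10.5 in wild-type, 4.5 in the Nrf2KO and 89 in the Keap1KO library. Because the copies are so similar, reads may have been placed on either, and the assignment is uncertain. The set next in height, shared by Neat1, Frmd8 and Gm9783, also lies on chromosome 19. Neat1 is the long noncoding RNA that builds paraspeckles, and the 3 regions lay 4858 and 2682 bp upstream and 494 bp beyond the end of its 3176 bp listing. Heights were 21.67, 9.67 and 82.33, the highest wild-type height of any member. Its summed Keap1KO height of 247 was above the tallest single region of the table, 194.

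Txnrd1, thioredoxin reductase (chromosome 10, GeneID 50493), shared its pair of regions with Eid3 and had 12 in wild-type, 5 in the Nrf2KO and 77 in the Keap1KO library. Rxra, a nuclear receptor that dimerises with many others (chromosome 2, GeneID 20181), had 13.5, 3 and 63.5. Gclc, the catalytic subunit of glutamate-cysteine ligase, which makes the precursor of glutathione (chromosome 9, GeneID 14629), had 13.5, 4 and 56.5. Its regions lay 9439 and 3911 bp upstream. Dhx57, a putative RNA helicase (chromosome 17, GeneID 106794), had 13, 3.5 and 52.5. In each of these sets the order was Nrf2KO below wild-type below Keap1KO. They were chosen by Keap1KO height, and Keap1KO was the highest library at all 259 members. Wild-type stood above Nrf2KO at 162 of the 259 and at 52.2% of all 1940 genes.

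**Figure D4:**
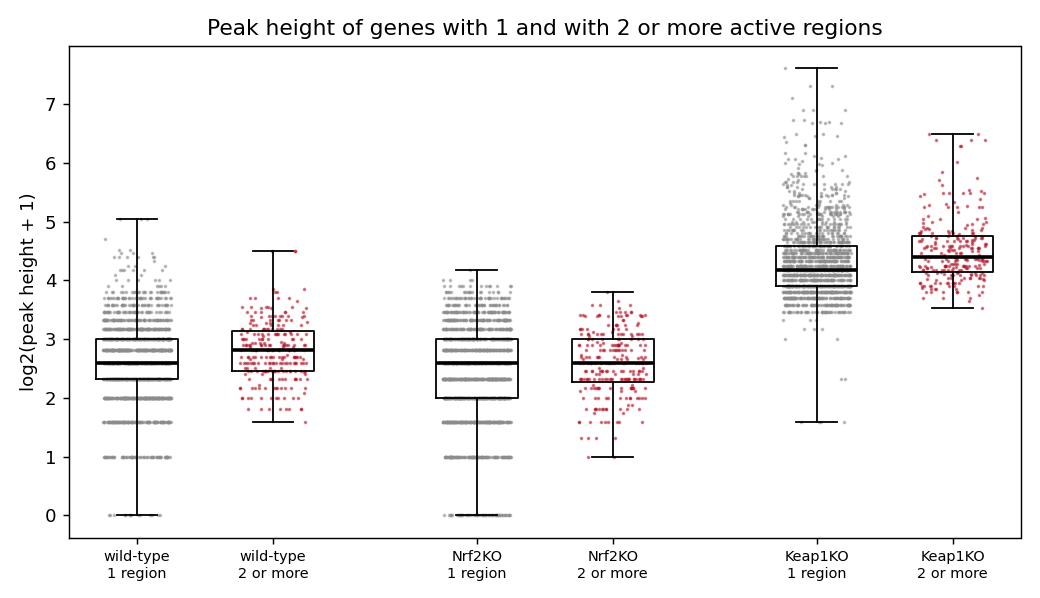
Peak height as log2(height + 1) in the 3 libraries, for 1681 genes with 1 active region (grey) and 259 with 2 or more (red, mean over regions). Points are genes, boxes are quartiles with the median, and whiskers reach the lowest and highest gene. Medians of the members are 6, 5 and 20 in wild-type, Nrf2KO and Keap1KO, and no member is at 0.

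The mean height hides unequal regions. For a gene with 2 regions, the height of the tallest and the mean give both Keap1KO heights, though not which region is which. Over 176 distinct pairs the taller region had a median of 23.5 and the lower one 15.5, and the median of the taller over lower ratio was 1.41 (quartiles 1.17 and 1.84). The regions were at least 2-fold apart in 38 pairs (21.6%) and equal in 5. Lower regions ran only from 10 to 43, while taller ones reached 156. Of the 33 pairs less than 1 kb apart, 11 were at least 2-fold unequal, against 27 of the 143 farther apart.

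In 8 pairs the heights were at least 4-fold unequal, so that 1 region held most of the signal. At Txnrd1 the Keap1KO heights were 139 and 15 (9.27-fold) at regions 832 bp apart, and at Gstp1 they were 156 and 22 (7.09-fold). Dhx57 had 92 and 13 (7.08-fold), Rxra 111 and 16 (6.94-fold) and Pde4d, a cyclic AMP phosphodiesterase, 79 and 12 (6.58-fold). Aox1, aldehyde oxidase, had 86 and 17 (5.06-fold), Gclc 94 and 19 (4.95-fold) and Slc11a1, a metal transporter of phagocytes, 61 and 13 (4.69-fold). Of the 8 pairs, 6 had an interval in wild-type as well, against 13 of all 176 pairs (7.39%) and 4.18% of all 1940 genes. At those 6 the wild-type interval lay at 1 of the pair only. No lower region was below 10, so a choice by unequal heights also picks tall regions. The taller regions of the 8 pairs had 61 to 156, against a median of 23.5 over all pairs, and the part of height was not tested.

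In other pairs the heights lay closer together. Hmox1, heme oxygenase (chromosome 8, GeneID 15368), had heights of 49 and 30, a ratio somewhat above the median. Its regions lay 9698 and 3954 bp upstream, and which of them was taller could not be told. Pvt1, a long noncoding RNA next to Myc, had 44 and 43, and Bach1, a repressor that competes with Nrf2 for its sites, had 37 and 33. Gsr had 29 and 25, and Pkm, pyruvate kinase, 25 and 24.

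**Figure D5:**
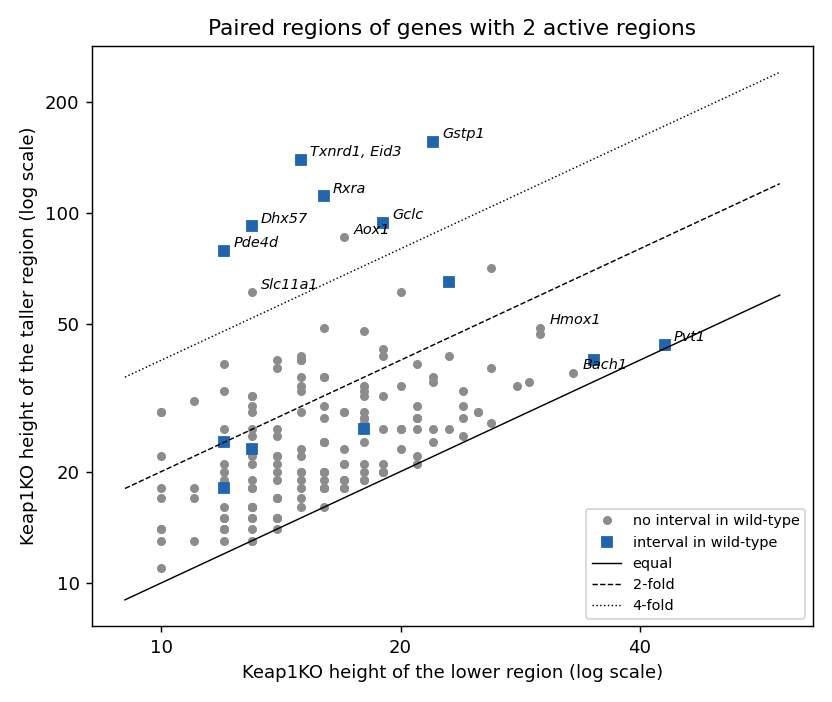
Keap1KO height of the taller region against that of the lower region, both on log scales, for 176 distinct pairs of regions. Squares are pairs with a wild-type interval, circles pairs without one, and lines mark equal heights, 2-fold and 4-fold. Most points lie between the lines of equality and 2-fold, and the labels mark the 8 pairs above 4-fold and, for comparison, Hmox1, Bach1 and Pvt1.

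For 45 members, in 42 distinct sets, each region could be given its own heights in all 3 libraries because a neighbouring gene listed only some of the regions. In all 45 the tallest solved height equalled the stated tallest height. Aox1 (chromosome 1, GeneID 11761) had, 209 bp upstream of its start, 11 in wild-type, 8 in the Nrf2KO and 86 in the Keap1KO library, and 4, 2 and 17 at a region 71791 bp inside. Slc11a1 had 5, 4 and 61 at 1437 bp inside, and 5, 4 and 13 past its end. Its regions thus differed in Keap1KO and had the same heights in the other libraries. Notch1, a receptor that directs squamous cell fate, had 9, 11 and 36 at 3922 bp upstream, and 8, 3 and 22 at 42830 bp inside.

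Klhl21, a substrate adaptor of a ubiquitin ligase, had its taller region 1541 bp inside (8, 5 and 38) and its lower one 91 bp upstream (5, 11 and 26). Near its start Nrf2KO was thus above wild-type, and at the inner region below it. Stk40, a kinase-like gene, was called 629 bp upstream (11, 6 and 28) and 7019 bp inside (5, 9 and 16). At Fank1 the region 16773 bp inside had 6, 5 and 30 and that at 6037 bp had 4, 3 and 13. Ahnak, a giant scaffold protein, had 26 in Keap1KO at 38780 bp and 14 at 84732 bp, with 9 and 1 in wild-type. Zswim4 had 37 in Keap1KO past its end and 16 at 334 bp upstream. At 2810459M11Rik these were 47 past its end and 30 upstream, and at 0610009E02Rik 22 past its end and 13 upstream. The region past the end of 0610009E02Rik is the same one as that inside Notch1.

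In 42 of the 45 genes the tallest and lowest regions differed in Keap1KO. The counts that follow are of genes, and Kansl2 and Snora2b, which share 1 pair of regions, each enter them. The taller region was nearer to the gene start in 22 and farther in 20. Its wild-type height was above that of the lower region in 32, below in 8 and equal in 2. Its Nrf2KO height was above in 18, below in 17 and equal in 7. Of these equal heights, 1 in wild-type and 6 in Nrf2KO may stand for a 0 at a region, because 0 appears to be left out of the means. That is read from 3 of the 777 member means (2010111I01Rik and Arhgap26 in wild-type, Mast4 in Nrf2KO), which were not whole sums over 3 regions but were over 2. In genes with 1 region, 0.806% of distinct regions were at 0 in wild-type, 3.87% in Nrf2KO and none in Keap1KO, while no member was at 0, so low means of members may be too high.

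Fold changes were taken on the height + 1 scale, which understates changes of low heights, and a 2-fold rule describes size only. At 244 of the 259 members the Keap1KO height was 2-fold or more that of wild-type, against 86.4% of all 1940 genes, and at least 2-fold lower at 0, against 0.309%. The median log2 ratio was 1.71 in members, 1.70 in genes with 1 region and 1.70 over all. The largest ratios among members of at least median Keap1KO height were those of Gstp1 and Gstp2 (7.83-fold). Sort1, a sorting receptor, followed with 3.5 in wild-type, 5.5 in the Nrf2KO and 31 in the Keap1KO library (7.11-fold), and the set of Fam198a and Gtdc2 with 2.5, 3 and 23.5 (7-fold). Among the same taller members the smallest were at Gadd45g (2.21-fold), Dapk2, a death-associated kinase (2.30-fold), Cap2, an actin regulator (2.33-fold), Nfkbie, an inhibitor of NF-kappa-B (2.36-fold) and Ptpn3, a tyrosine phosphatase (2.50-fold). Of all members 15 lay under 2-fold, 10 of them with a region within 1 kb of the start, against 31.3% of all members.

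Wild-type stood above Nrf2KO at 162 of the 259 members, against 52.2% of all 1940 genes, was equal at 16 and lay below at 81. It was at least 2-fold higher at 25 members (9.65%), against 17.5% of all genes, and at least 2-fold lower at 3, against 8.2%. Both shares were thus smaller in members. Member heights are means over several regions, which vary less than the height of 1 region, and the part of this was not tested. The median log2 ratio was 0.22 in members, 0.13 in genes with 1 region and 0.15 over all. The largest ratio among the taller members was that of Mbnl1, a splicing regulator, and Gm19816, which share regions, with 8.5 against 1.5 (3.8-fold). Rxra (3.62-fold), Hmox1 with 11.5 against 3 (3.12-fold) and Dhx57 (3.11-fold) followed. All but 1 of the 25 genes lacked a region within 1 kb of the start, as did 178 of all 259 members. The count of 25 depends on the low heights, since it was 6 with a pseudocount of 5, and it was 12 over the 235 members without a wild-type interval. In members without a region near the start the median was 0.29, and in those with one it was 0.00.

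At 243 of the 259 members the Keap1KO height was 2-fold or more that of Nrf2KO, against 83.3% of all genes, and at least 2-fold lower at 0, against 0.206%. The median log2 ratio was 1.89 in members, 1.81 in genes with 1 region and 1.83 over all. Gstp1 (16.4-fold), Rxra (16.1-fold) and Txnrd1 (13.0-fold) had far more signal in Keap1KO than in Nrf2KO. Of the 16 members under 2-fold, 14 had a region within 1 kb of the start, against 31.3% of all members. In genes with 1 region, 63% reached 2-fold with the region that close to the start and 88.3% with it farther away. The comparisons share libraries and are given side by side.

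Intervals were called in wild-type at 24 members, 9.27%, against 4.18% of all 1940 genes. They stood for 17 distinct regions in 16 sets. Only the set of Neat1, Frmd8 and Gm9783 had 2 regions called in wild-type, and all other sets had 1. The region of Samd4, an RNA-binding protein gene, 533 bp upstream of its start was the single one called in wild-type and not in Keap1KO. Members differ from other genes in the number of regions that could be called, whose part was not tested. The calls follow from the wild-type heights, so the heights of these members are given as a description. Their medians were 10.7 in wild-type, 5 in the Nrf2KO and 44 in the Keap1KO library, against 5.5, 5 and 19.5 in the other 235 members.

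Besides the sets already described, wild-type calls were found at genes of other functions. Zbtb7b, a zinc finger transcription factor, had 13 in wild-type, 10 in the Nrf2KO and 37.5 in the Keap1KO library. Its called region 1773 bp upstream had 17 in wild-type and the other, 14371 bp inside, 9. Pvt1 had 12, 4 and 43.5, and Arntl, a core factor of the circadian clock, 10.67, 3.67 and 28.33 over 3 regions, with the call 53143 bp inside. The set of Mir22, Mir22hg, Wdr81 and Tlcd2 on chromosome 11 had 10.67, 9.67 and 37, so that wild-type was barely above Nrf2KO there. Its regions lay 4116, 2500 and 676 bp upstream of the Mir22 hairpin, and the middle one was called in wild-type. Pde4d had 10, 9.5 and 45.5 with its call 1122159 bp into a gene of 1301792 bp. Vcp and Fancg, a Fanconi anemia gene, shared a pair with 10, 5 and 44.

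Genes of the Nrf2 pathway were grouped into 8 lists, chosen with earlier results of these data known. Of 137 genes on them 65 were in the table, and 20 of those (30.8%) had 2 or more regions, against 13.4% of all listed genes. On the other lists, described further on, the share was also above that, with 12 of 58 (20.7%). At all 20 the Keap1KO height was 2-fold or more that of either other library, and at 7 wild-type was 2-fold or more that of Nrf2KO. Over all 1940 genes these shares were 86.4% (Keap1KO to wild-type), 83.3% (Keap1KO to Nrf2KO) and 17.5%, and over the members the former were 94.2% and 93.8%, close to the 20 of 20. The 20 genes stood for 19 distinct sets, since Gstp1 and Gstp2 share theirs. Median heights of the 20 were 7.5 in wild-type, 4.5 in the Nrf2KO and 31.1 in the Keap1KO library. Keap1KO stood a median of 1.98 (log2) above wild-type and 2.66 above Nrf2KO, and wild-type a median of 0.53 above Nrf2KO. These values describe the lists and were not tested.

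Glutathione synthesis and peroxide removal had 4 members among 10 listed genes, Gclc, Gss, Gsr and Slc7a11. Slc7a11, the cystine and glutamate exchanger (chromosome 3, GeneID 26570), had 3 regions, 83 bp upstream and at 5373 and 6941 bp inside. Its heights were 3.67 in wild-type, 3.67 in the Nrf2KO and 29.67 in the Keap1KO library, so wild-type was not above Nrf2KO. Gsr had 5.5, 3.5 and 27. Of the glutathione transferases 2 of 13 were members, Gstp1 and Gstp2, and of the thioredoxin list 1 of 6, Txnrd1.

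Quinone, carbonyl and aldehyde enzymes had 2 of 10. Besides Aox1 this was Ephx1, microsomal epoxide hydrolase (chromosome 1, GeneID 13849), with 5.33, 3.33 and 23.67 over 3 regions and a tallest region of 46. Of 6 listed genes of NADPH supply and the pentose phosphate pathway 3 were members. Pgd, phosphogluconate dehydrogenase, had 7.5, 6.5 and 32.5 with regions 4205 and 109 bp upstream. G6pdx, the enzyme that opens the pathway, had 5, 2 and 27.5 at a pair 800 bp apart, which is also listed under Ikbkg, a regulator of NF-kappa-B. H6pd, its counterpart in the endoplasmic reticulum, had 6.67, 4.33 and 19.

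Heme and iron had 2 of 4, Hmox1 with 11.5, 3 and 39.5 and Fth1, the ferritin heavy chain, with 7.5, 6.5 and 21. Conjugation and export had 1 of 5, Ugdh, which makes UDP-glucuronate, with 6, 3.5 and 26. Regulators and partners of Nrf2 had 5 of 11. Rxra has been described. Mafg, a small Maf partner of Nrf2 (chromosome 11, GeneID 17134), had 8.67, 6 and 43.67 over 3 regions at 715, 2603 and 3371 bp inside, shared with Pycr1 and Sirt7. Bach1 had 10.5, 10 and 35, Ncoa2, a coactivator of nuclear receptors, 5.5, 5 and 17.5, and Keap1 the heights given with its regions. Wild-type stood above Nrf2KO at 4 of the 5, against 162 of the 259 members and 52.2% of all 1940 genes. The exception was Keap1.

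Among the other lists, glycolysis and glucose uptake had 4 members of 10 listed genes. Aldoa, aldolase, had 10, 11 and 28.5, Hk1, a hexokinase, 4.67, 4.33 and 27, Pkm 5.5, 4.5 and 24.5, and Pfkfb2 4.67, 7.33 and 16. The regions of Pfkfb2 are also those of Yod1, where they lay 1087 and 271 bp upstream and 305 bp inside. Those of Aldoa are also listed under Ppp4c and those of Pkm under Parp6. At Aldoa and Pfkfb2 wild-type lay below Nrf2KO, as at 81 of the 259 members. The proteasome list had 3 of 17, Vcp, Psmb3 (6.5, 7.5 and 25.5) and Psmd12 (5.5, 4 and 22.5). Each of the 3 had a region within 1 kb of its start, as did 31.3% of all members. Basal squamous genes had 1 of 6, Notch1, and squamous differentiation 1 of 2, Ecm1, an extracellular matrix protein gene, with 3.5, 4.5 and 19 at regions past its end. Of 7 listed AP-1 and immediate early genes 1 was a member, Ier3, a stress response gene, with 7.5, 6 and 19. Actin, adhesion and junction genes had 2 of 11, Cdh13 and Vcl, vinculin (2.5, 3 and 12). The muscle, fibroblast and endothelial, and immune lists had 0 members of 2, 2 and 1 listed genes.

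The highest signal in Nrf2KO among members was at Grik5, a glutamate receptor subunit, with 13 against 5 in wild-type and 23 in Keap1KO. Its Nrf2KO mean is one that may leave out a region at 0. Ap1g1, an adaptor of vesicle coats, had 11.5 against 9 and 28, with both regions within 1 kb of the start. The set of Aldoa and Ppp4c had 11 against 10 and 28.5, and 2810459M11Rik 11 against 12 and 38.5. These genes were picked for a high Nrf2KO height, which by itself favours Nrf2KO above wild-type. At Grik5, Ap1g1 and Aldoa wild-type was below Nrf2KO, as at 81 of the 259 members and 713 of all 1940 genes. Keap1KO was the highest library at all the genes named here, as at all 259 members.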

How the data were processed

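Nrf2 ChIP-seq was measured in 3 libraries of mouse esophagus, 1 per genotype. Per the submitters' processing notes, BWA, MACS2 2.1.0 and mm10 were used. Their settings and any scaling of libraries were not given in the sources used here. Per the file headers, the deposited signal is the mean peak height of each gene, and a further deposited signal column gives the tallest height. Positions were computed from gene start, strand and listed distance. The 1727 intervals were merged, closest first, to the stated number of regions (largest distance 704 bp), and heights of single regions came from a least squares solution of those means (largest residual 0.00186), a step checked on simulated heights.

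Ratios used a pseudocount of 1. Promoter windows were matched by gene identifier. RefSeq (GRCm38.p6) held 251 members, 74.1% of them with start and end no more than 1 kb from those of the table. Members and lists were chosen with earlier results of these data known. Named were genes with 4 or more regions (1 of them is not reported here), the extremes of height, span and ratio, those called in wild-type (up to 20), up to 3 members per list, and the 10 most unequal solved genes. Other genes, such as Pfkfb2, Keap1, Ncoa2, Gss among the lists, Sod1, Vmp1, Samd4, Ikbkg, Yod1, Parp6, 2010111I01Rik, Arhgap26 and Mast4, were named after their values were seen. Alternatives were 1 value per distinct set, taller members, 3 or more regions, pseudocounts of 0.5 and 5, and joined regions. Python 3.11.15, numpy 2.4.6 and pandas 2.3.3 were used.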

Additional observations from a re-analysis of the deposited data

How the results depend on the processing

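No paired analysis was possible because there is 1 library of every genotype. Of 62 values under an alternative, 40 stayed within the margin (95% order-statistic or exact binomial interval, or 1.5 times for counts), 22 moved and 0 changed sign. The cause was not tested, except that subsets leave fewer genes and ratios get smaller with a larger pseudocount. The precision of each ratio is limited by a depth that is unknown. With 1 value per distinct set the median spacing was 12576 bp, and with regions closer than 1 kb joined it was 16048 bp.

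Members of at least median Keap1KO height numbered 134, with a median of 26, log2 ratios of 1.93 over wild-type and 2.21 over Nrf2KO, and 134 and 133 genes at least 2-fold higher. With 3 or more regions there were 61 genes, a spacing of 4544 bp, a length of 29542 bp, 59, 59 and 5 genes at least 2-fold higher (Keap1KO over wild-type, over Nrf2KO, and wild-type over Nrf2KO), and 8 with a wild-type interval. At a pseudocount of 0.5 Keap1KO stood a median of 1.81 (log2) above wild-type, and at 5 it stood 1.26 above. The latter gave 1.38 for Keap1KO to Nrf2KO and 6 genes at least 2-fold higher in wild-type than in Nrf2KO. The subsets that follow were chosen after seeing the data. Without a region near the start the medians were 0.29 (wild-type to Nrf2KO) and 2.04 (Keap1KO to Nrf2KO). Without a wild-type interval, 12 genes were at least 2-fold higher in wild-type than in Nrf2KO.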
